A study of Homo sapiens with 30 samples.

Results

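GBX1, GBX2, OTX1 and DMBX1 are 4 homeobox genes that divide along the head-to-tail axis of the early brain, and their chromatin was compared in 10 lists of accessible regions. The genes were chosen by name, with GBX1 and GBX2 as the hindbrain-side pair and OTX1 and DMBX1 as the forebrain and midbrain pair. They are 4 of 20037 protein-coding symbols on chromosomes 1 to 22, X and Y. Peaks were counted where they overlapped a window made of the gene body and 50 kb on each side. Peaks of all lists that shared at least 1 bp were joined into merged regions, and 133 of the 493444 merged regions lay in the 4 windows.

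Accessible DNA was mapped by OmniATAC-seq, in which a transposase cuts open chromatin, in H1, a single line of human embryonic stem cells with a wild-type genotype. There were 30 libraries of 50000 cells each, in 10 groups of 3 replicates, and 1 peak list per group. hPSC were the undifferentiated cells on day 0. DE was definitive ectoderm on day 1, after a day in A8301, trametinib, C59 and LDN193189, which block TGF-beta receptors, MEK, WNT secretion and BMP receptors. All later groups passed through that medium. For aNE, anterior neural ectoderm on day 2, the cells were replated in A8301, LDN193189, C59 and the survival aid thiazovivin. For pNE, posterior neural ectoderm on day 2, C59 was replaced by 50 nM TTNPB, a retinoic acid receptor agonist, with 20 ng/mL FGF2 and 1 µM XAV939. Each day 2 population was then taken to day 4 in a telencephalon, midbrain or hindbrain medium, giving aNE_T, aNE_M, aNE_H, pNE_T, pNE_M and pNE_H. For the day 4 groups the plating density was 75000 cells/cm2 on the anterior and 150000 cells/cm2 on the posterior side, and 37500 cells/cm2 for both day 2 groups, so origin and plating density cannot be told apart.

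In the vertebrate neural plate, OTX proteins mark the future forebrain and midbrain and GBX proteins mark the anterior hindbrain. Each side represses the other, and the border between them positions the isthmic organizer, a signalling centre that releases FGF and WNT ligands. GBX2 is the main hindbrain-side partner at this border and GBX1 is its paralog. OTX1 acts with its paralog OTX2 in forebrain and midbrain growth, and DMBX1 is a paired-type homeobox gene of the diencephalon and midbrain.

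The start-site sequences are shown because all 4 start sites lay in a peak in every list. They are the 250 bases before the annotated start, 5′ to 3′ on the gene's strand, from RefSeq (GRCh38.p14), and all 4 genes were matched by symbol. Capitals mark CCAAT on either strand, a common element of vertebrate promoters.
GBX1: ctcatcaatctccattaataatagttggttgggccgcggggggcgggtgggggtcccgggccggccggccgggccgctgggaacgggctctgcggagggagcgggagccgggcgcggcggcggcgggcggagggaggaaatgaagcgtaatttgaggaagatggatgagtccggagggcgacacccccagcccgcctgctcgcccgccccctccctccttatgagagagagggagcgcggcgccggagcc
GBX2: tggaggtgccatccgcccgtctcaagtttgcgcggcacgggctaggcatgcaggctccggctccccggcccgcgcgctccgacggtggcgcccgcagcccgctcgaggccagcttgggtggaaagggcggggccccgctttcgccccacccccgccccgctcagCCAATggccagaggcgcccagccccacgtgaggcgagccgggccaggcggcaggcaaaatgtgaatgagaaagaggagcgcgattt
OTX1: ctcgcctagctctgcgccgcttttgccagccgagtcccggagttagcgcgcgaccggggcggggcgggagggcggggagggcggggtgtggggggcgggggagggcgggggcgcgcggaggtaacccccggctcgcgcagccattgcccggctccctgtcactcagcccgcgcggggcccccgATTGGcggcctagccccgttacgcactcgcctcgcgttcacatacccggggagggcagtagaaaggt
DMBX1: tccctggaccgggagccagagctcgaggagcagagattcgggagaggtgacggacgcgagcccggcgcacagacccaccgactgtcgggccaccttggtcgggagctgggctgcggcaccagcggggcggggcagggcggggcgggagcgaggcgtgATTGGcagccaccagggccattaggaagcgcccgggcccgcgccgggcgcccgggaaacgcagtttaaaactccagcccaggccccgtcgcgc
These stretches lie at chr7:151167695-151167944 on the minus strand for GBX1, chr2:236168387-236168636 on the minus strand for GBX2, chr2:63050580-63050829 on the plus strand for OTX1 and chr1:46489586-46489835 on the plus strand for DMBX1. They were rich in G and C, with 71.2% in GBX1, 72.0% in GBX2, 75.2% in OTX1 and 73.2% in DMBX1, where the median of 15843 promoters was 62.4%. They held 28, 28, 33 and 29 CpG dinucleotides, against a median of 17. A CCAAT was found in GBX2, OTX1 and DMBX1, starting 86, 67 and 93 bases before the start, and in 34.5% of all promoters. This motif was chosen after the sequences had been read. No match says only that these letters are not in this window, and none of the other 6 motifs searched on both strands occurred in these 4 windows: TAATCC (OTX type, 4.84% of promoters), TAATTA (homeodomain, 3.14%), ATCAAAG (TCF, 1.73%), ACAATG (SOX, 6.70%), ATGCAAAT (octamer, 1.65%) and AGGTCA (a core site of nuclear receptors, 10.3%).

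On these chromosomes the shortest list was aNE, at 167792 peaks, and the longest pNE_H, at 313095, and no list gives a score or a value per library. Differences below are therefore between lists, without replicate error or a test, and read depth is unknown. The narrowest peak was 122 to 126 bp in the 3 aNE-derived day 4 lists and 109 to 115 bp in the 3 pNE-derived lists, so peak calling and origin cannot be told apart. In hPSC and DE it was 113 and 112 bp, against 125 and 124 bp in aNE and pNE. Peak calling and the step from DE to day 2 cannot be told apart either. The labelled cell types were checked by marker start sites and marker windows. Of 3 pluripotency markers with an annotated start, 3 were open in hPSC and 2 or 3 in each later list. Of 5 neural ectoderm markers 4 or 5 were open in every list, hPSC included. For other cell types, 4 of 4 mesendoderm markers were open in every list, and 2 or 3 of 3 surface ectoderm and neural crest markers. Open start sites therefore did not separate the labelled types. In the windows of the 5 pluripotency markers there were 84 peaks in hPSC and 87 in DE, against 48 to 73 in the later lists. In those of the 6 neural ectoderm markers there were 135 and 155, against 115 to 174.

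All 4 start sites were open in pluripotent cells and stayed open in every later list, whichever side of the border the gene belongs to. That was common, since 75.1% of protein-coding start sites had a peak within 1 kb in all 10 lists. The genes differed in how much of the 2 kb around the start lay in peaks. At GBX1 the bases in peaks within 1 kb of the start were 1824 in hPSC, 1600 in DE, 1697 in aNE, 1589 in pNE, 1858 in aNE_T, 1815 in aNE_M, 1796 in aNE_H, 1647 in pNE_T, 1565 in pNE_M and 1944 in pNE_H. At GBX2 they were, in the same order of lists, 1091, 915, 835, 595, 1012, 1103, 1127, 1258, 1030 and 1272. The GBX1 start was thus broadly open throughout, while the GBX2 start was narrowest in pNE. At OTX1 the values were 831, 625, 825, 830, 714, 706, 731, 858, 867 and 854. At DMBX1 they were 813, 855, 1130, 903, 1173, 1086, 705, 697, 617 and 656. On day 4 the DMBX1 start had more bases in peaks in each aNE-derived list than in any pNE-derived list, and the OTX1 start the reverse. The gap was small at DMBX1, from 705 in aNE_H to 697 in pNE_T, and larger at OTX1, from 731 in aNE_H to 854 in pNE_H. Over all start sites open in the 6 day 4 lists, such a gap was seen in 5.01% toward the aNE-derived and in 3.82% toward the pNE-derived lists. The GBX1 and GBX2 starts overlapped between origins. The 250 bases printed were covered whole except in DE at GBX1, with 144 bases, and in pNE_M at DMBX1, with 226.

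GBX1 (chr7:151148009-151167694, minus strand) had 27 peaks in hPSC, 30 in DE, 19 in aNE and 20 in pNE. The day 4 counts were 19, 19 and 17 in aNE_T, aNE_M and aNE_H, and 20, 18 and 20 in pNE_T, pNE_M and pNE_H. Both protocols showed the lower count from day 2 on, and the day 2 and day 4 counts did not overlap those of hPSC and DE. The share of all protein-coding windows with such a gap was not counted. The median window also fell, from 10.6 and 11.9 peaks per 100 kb in hPSC and DE to 8.16 in aNE and 9.12 in pNE. It was 12.1 in pNE_H, the longest list. Among the wider 50% of peaks the GBX1 counts met at 14, in hPSC, pNE and aNE_M. GBX2 (chr2:236161340-236168386, minus strand) had 21, 22, 12 and 16 peaks in hPSC, DE, aNE and pNE. It had 22 in aNE_T and 21 in aNE_M, with 16 in aNE_H, and had 19, 16 and 20 in pNE_T, pNE_M and pNE_H. GBX2 was thus lowest in aNE, which is also the shortest list. Among the widest peaks in lists of one size, GBX2 had 19 in hPSC, 14 in DE, 12 in aNE and 13 in pNE, then 14, 14 and 11 in aNE_T, aNE_M and aNE_H and 15, 12 and 8 in pNE_T, pNE_M and pNE_H. At equal length the lowest count was therefore in pNE_H, and aNE_T and aNE_M matched DE but not hPSC.

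OTX1 (chr2:63049735-63057831, plus strand) had 14, 13, 14 and 17 peaks in hPSC, DE, aNE and pNE. On day 4 it had 15, 18 and 15 in aNE_T, aNE_M and aNE_H, and 17, 15 and 18 in pNE_T, pNE_M and pNE_H. Its count was not lower in aNE than in DE, and in lists of one size it was 9 in DE and 14 in aNE, while DMBX1 had 25 and 26. DMBX1 (chr1:46489836-46516216, plus strand) had 29, 32, 26 and 28 peaks in the same order. On day 4 it had 29, 28 and 27 in the aNE-derived lists and 24, 24 and 26 in the pNE-derived lists. These 2 sets of lists did not overlap, although pNE_H is the longest list of the series. Over all protein-coding windows, 1.04% had more peaks in each aNE-derived than in any pNE-derived list. Among the widest peaks in lists of one size the DMBX1 counts were 25 to 26 against 16 to 22. They overlapped with 10 kb each side (9 to 10 against 8 to 9), with 100 kb (39 to 45 against 37 to 43) and among the wider 50% of peaks (14 to 21 against 14 to 16).

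Set per length, the order of the genes differed between lists. In hPSC the densities were 22.9 peaks per 100 kb of window at DMBX1, 22.6 at GBX1, 19.6 at GBX2 and 13.0 at OTX1, with a median of 10.6 over all protein-coding windows. In aNE they were 20.6 at DMBX1, 15.9 at GBX1, 13.0 at OTX1 and 11.2 at GBX2, with a median of 8.16. On day 4 GBX2 was above OTX1 in every list. It was also above GBX1 in every day 4 list except pNE_M, where GBX2 was at 14.9 and GBX1 at 15.0. DMBX1 was the densest of the 4 in every list, at 1.69 to 2.52 times the median window. OTX1 was at the median in DE, with a ratio of 1.01, and reached 1.74 in aNE_M. GBX2 ranged from 1.37 in aNE to 2.25 in aNE_T, and GBX1 from 1.38 in pNE_H to 2.14 in hPSC.

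**Figure D1:**
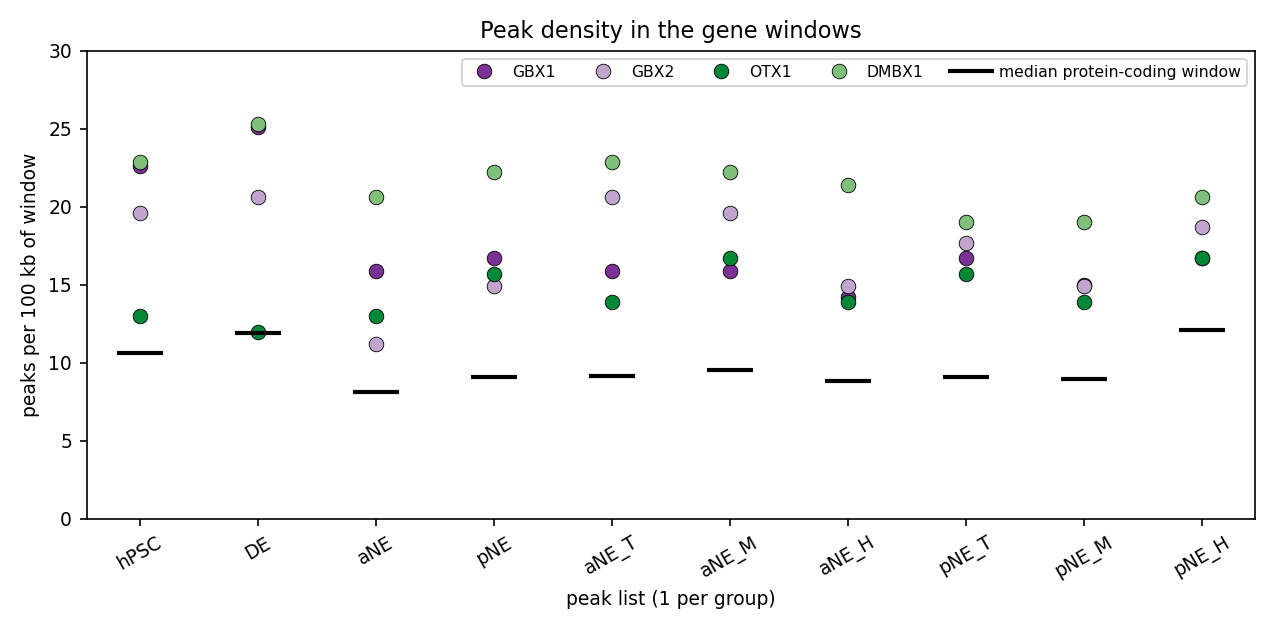
Peaks per 100 kb of window (vertical axis) at each of the 4 genes in each of the 10 lists, with the median protein-coding window of the same list as a black bar. DMBX1 lies highest in every list, GBX1 is at 25.1 in DE and 15.9 in aNE, and OTX1 lies closest to the median window in DE.

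The GBX pair held 52.7% of the peaks at the 4 genes in hPSC (48 of 91) and 53.6% in DE (52 of 97), against 43.7% in aNE (31 of 71) and 44.4% in pNE (36 of 81). On day 4 the GBX share was 48.2%, 46.5% and 44.0% in aNE_T, aNE_M and aNE_H, and 48.8%, 46.6% and 47.6% in pNE_T, pNE_M and pNE_H. The share thus differed little between the anterior and posterior populations of a day, and the hindbrain lists did not have the highest value. The Wilson 95% intervals, which cover the counting of peaks only, ran from 32.7 to 55.2% in aNE and from 43.7 to 63.2% in DE, and those of all 10 lists overlapped. With windows of 100 kb each side the share was 50.0 to 57.6%, and with 10 kb 37.0 to 44.7%, so which pair held more peaks depended on the window. As a density ratio, the GBX pair stood at 1.15 and 1.20 times OTX1 and DMBX1 in hPSC and DE. It stood at 0.801 to 0.984 times in the later lists. A GBX share higher in both hPSC and DE than later was not kept under every setting. In lists of one size the share was 50.7% in DE and 52.3% in pNE_T. Among the wider 50% of peaks it was 51.1% in hPSC and 55.0% in pNE_T. By bases in peaks it was 52.1% in hPSC and 52.7% in pNE_M. By midpoint and with 100 kb each side the split was kept. The ratio of GBX2 to OTX1 alone was 1.51 in hPSC, 1.71 in DE, 0.866 in aNE, 0.950 in pNE and 1.48 in aNE_T, and 1.08 to 1.18 in the other 5 lists.

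**Figure D2:**
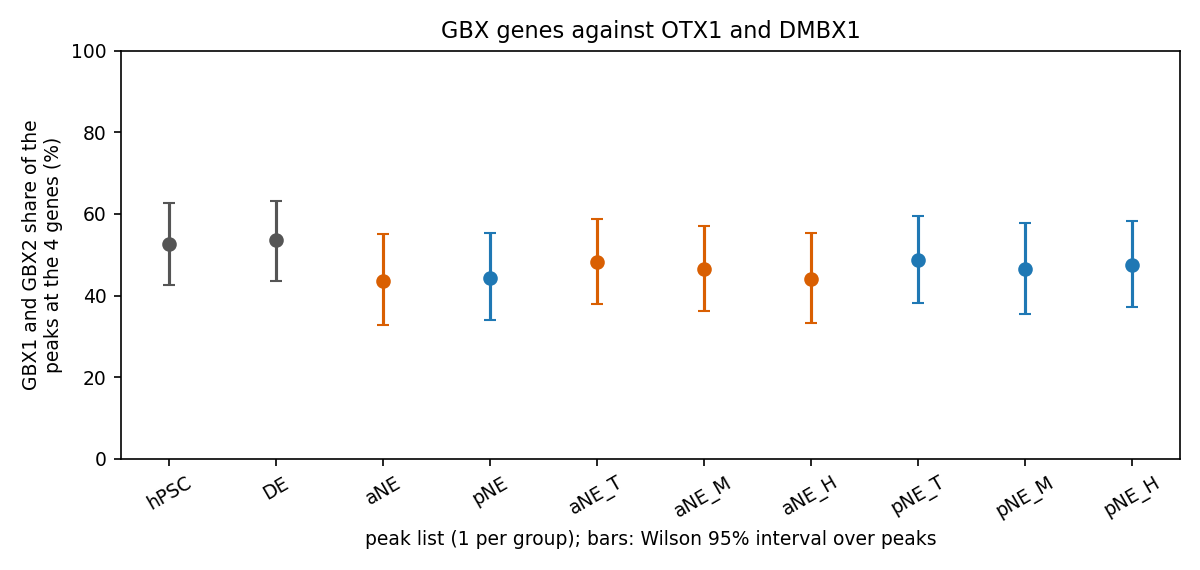
Share of the peaks at the 4 genes that lay at GBX1 or GBX2 (vertical axis, percent) in each list, with Wilson 95% intervals over peaks. The points run from 43.7% in aNE to 53.6% in DE, and the intervals of all lists overlap.

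Part of each window belongs to other genes, so a peak there need not act on the homeobox gene. AGAP3 covers 38.8% of the GBX1 window, and ASB10, DRC11L, ABCF2-H2BK1, H2BK1 and ABCF2 also reach into it. AGAP1 and ASB18 cover 19.1% and 23.3% of the GBX2 window, and the long noncoding GBX2-AS1 covers 43.7%. EHBP1 covers 43.3% of the OTX1 window. TMEM275, KNCN and MKNK1 cover 2.65%, 4.75% and 6.97% of the DMBX1 window, and the long noncoding MKNK1-AS1 covers 21.8%. Of the 133 regions, 61 lay inside another protein-coding gene, 26 of 34 at GBX1, 18 of 35 at GBX2, 12 of 25 at OTX1 and 5 of 39 at DMBX1.

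Regions that never closed made up a larger share at GBX1, OTX1 and DMBX1 than genome-wide, and at GBX2 a share near the genome-wide one. Of the 133 regions 40 were open in all 10 lists (30.1%), against 16.5% of all merged regions and 18.5% of those in any protein-coding window. They numbered 12 at GBX1 (35.3% of its regions), 6 at GBX2 (17.1%), 7 at OTX1 (28.0%) and 15 at DMBX1 (38.5%). GBX2 thus had the smallest constant part. Of the 40, 16 lay inside another protein-coding gene, and 9 of these 16 were at GBX1. Regions open in a single list were 30 of 133 (22.6%), against 33.5% of all. The constant regions were wider, with a median of 991 bp against 284 bp for the others, as they also were genome-wide (871 against 258 bp).

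**Figure D3:**
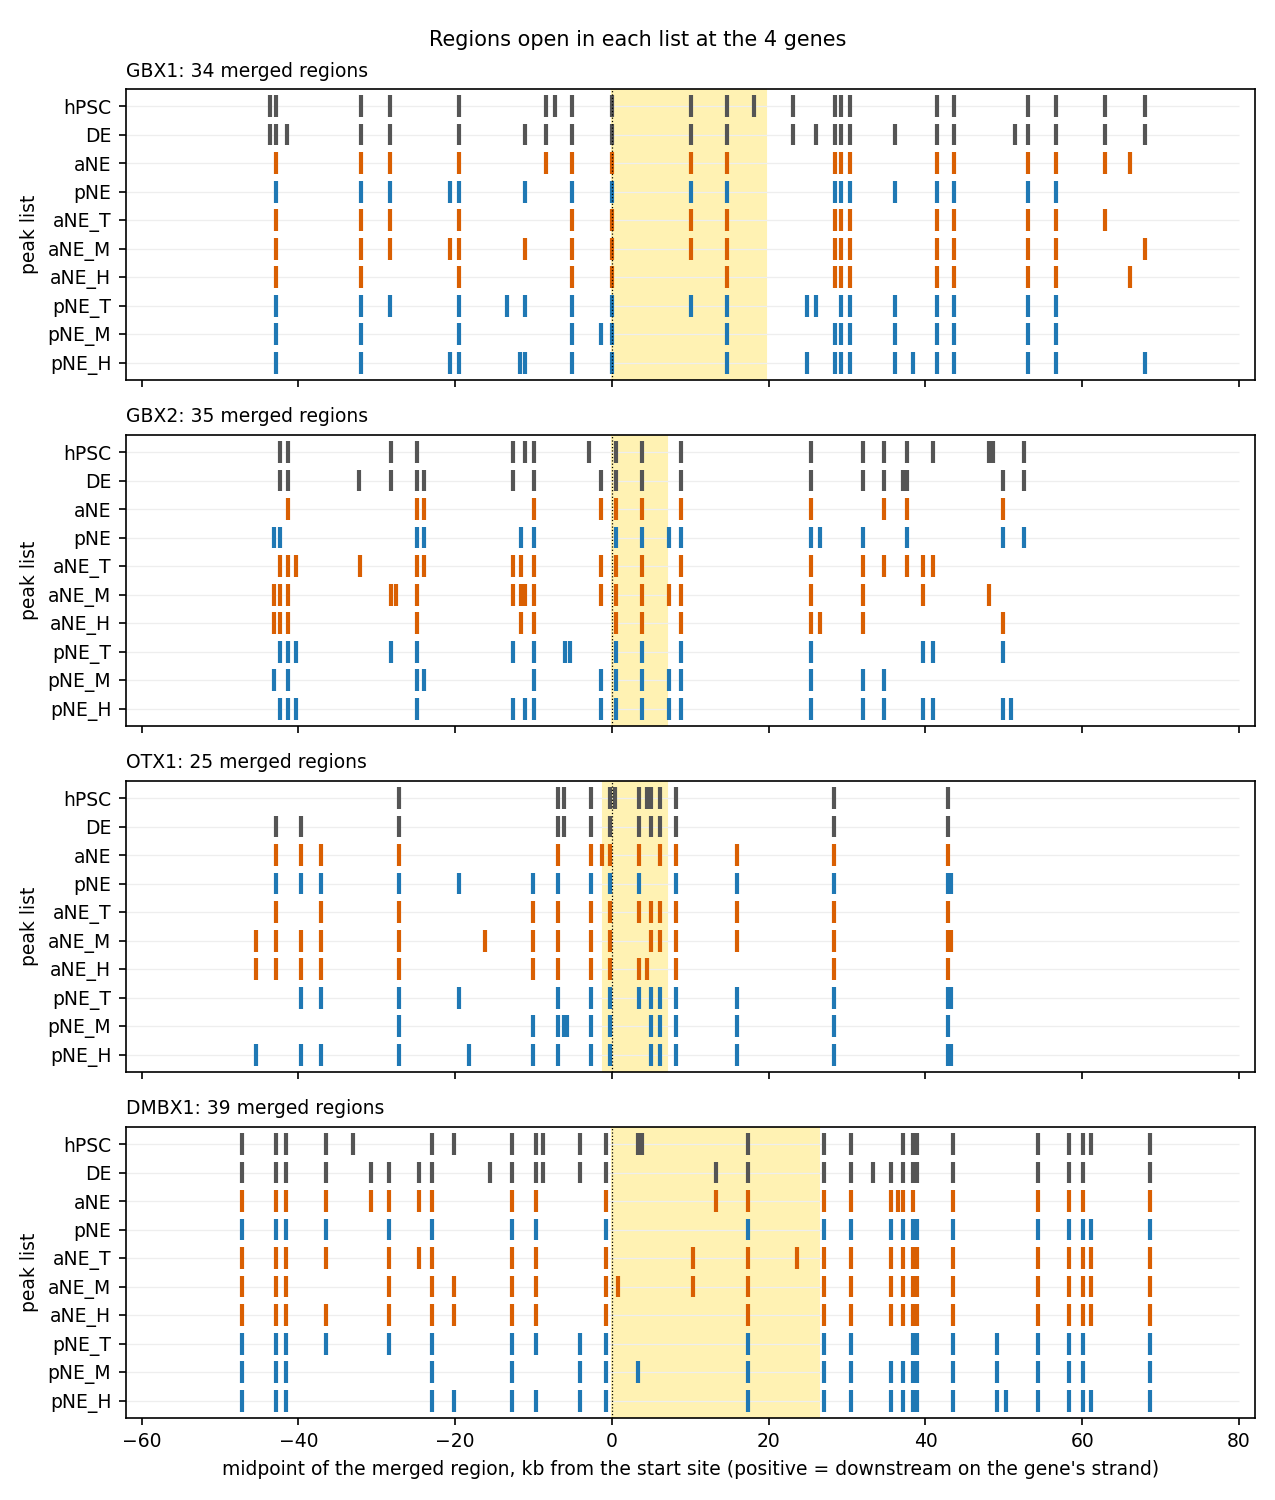
Midpoints of the merged regions at each gene, in kb from the annotated start site (horizontal axis), with a tick in each list that was open there. Shading marks the gene body, which at OTX1 begins before the start site used, and unbroken columns of ticks are the 12, 6, 7 and 15 regions open in all 10 lists.

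From hPSC to DE the 2 pairs of genes gave similar shares. At the GBX genes 7 of 51 regions were open in hPSC only (13.7%) and 10 in DE only (19.6%). At OTX1 and DMBX1 7 of 48 were open in hPSC only (14.6%) and 9 in DE only (18.8%). Over all merged regions the shares were 15.8% and 27.2%.

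Below, a region open in the later list of a pair only is called gained, and one open in the earlier list only is called lost. From DE to day 2 the GBX windows lost regions at about the rate of the genome, and the OTX1 and DMBX1 windows lost fewer. Against aNE, 15 of 45 GBX regions were open in DE only (33.3%) and 7 of 45 OTX1 and DMBX1 regions (15.6%), where all regions gave 36.4%. Only 1 GBX region was open in aNE and not in DE (2.22%), with 4 at OTX1 and DMBX1 (8.89%) and 6.75% over all regions. By gene, GBX1 lost 8 and GBX2 lost 7, OTX1 lost 2 and gained 3, and DMBX1 lost 5 and gained 1. Against pNE, 15 of 49 GBX regions were open in DE only (30.6%) and 10 of 47 at OTX1 and DMBX1 (21.3%), beside 31.1% over all regions. Regions open in pNE only were 5 at the GBX genes (10.2%) and 6 at OTX1 and DMBX1 (12.8%), beside 17.4%. The DE list held 247642 peaks, aNE 167792 and pNE 206811, and these pairs of lists were not recounted by region at equal length. Among the widest peaks in lists of one size, GBX1 had 21, 19 and 18 peaks in DE, aNE and pNE, and GBX2 had 14, 12 and 13. OTX1 then had 9, 14 and 14, and DMBX1 had 25, 26 and 24.

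Between the day 2 populations the GBX genes were near the genome-wide split. Of 40 GBX regions, 10 were open in pNE only (25.0%) and 6 in aNE only (15.0%), where all regions gave 28.5% and 12.4%. Of 43 OTX1 and DMBX1 regions, 5 were open in pNE only (11.6%) and 6 in aNE only (14.0%). The higher pNE-only than aNE-only number at the GBX genes lay at GBX2, with 7 pNE-only and 3 aNE-only regions, while GBX1 had 3 of each. OTX1 had 3 pNE-only and 2 aNE-only regions, and DMBX1 had 2 and 4. The counts depended on the window, on peak width and on list length, and with 10 kb each side the GBX genes had 1 pNE-only and 2 aNE-only regions. Among the widest peaks in lists of one size the GBX genes had 6 pNE-only and 6 aNE-only regions, so the difference was not kept. OTX1 and DMBX1 then had 2 pNE-only and 8 aNE-only regions. A tilt toward pNE was general, since 58.3% of protein-coding windows had more pNE-only than aNE-only regions.

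None of the 10 GBX2 regions that differed on day 2 kept that difference in all 6 day 4 lists. The share of all regions that kept such a difference was not counted. Of all regions open in any day 4 list, only 2.77% were open in all pNE-derived and no aNE-derived lists, and 0.752% the reverse. The region 32.0 kb downstream of the start (chr2:236135922-236136864), outside any other protein-coding gene, had 404 bases in peaks in hPSC, 407 in DE, 0 in aNE, 190 in pNE, 458, 441 and 147 in aNE_T, aNE_M and aNE_H, and 0, 248 and 172 in pNE_T, pNE_M and pNE_H. It closed in aNE and reopened in all 3 lists made from aNE. The region 7.31 kb downstream (chr2:236160848-236161298), just past the 3′ end of the gene, was absent from hPSC, DE and aNE. It had 388 bases in pNE and then 125 in aNE_M, 114 in pNE_M and 136 in pNE_H, with 0 in aNE_T, aNE_H and pNE_T. The region 1.45 kb upstream (chr2:236169522-236170149) ran the other way on day 2, with 542 bases in aNE and 0 in pNE. It held 121 bases in DE, 221 in aNE_T, 174 in aNE_M, 344 in pNE_M and 298 in pNE_H, and 0 in hPSC, aNE_H and pNE_T. The other pNE-only regions lay 52.6 and 26.5 kb downstream and 11.5, 42.3 and 43.1 kb upstream, and the other aNE-only regions 34.7 kb downstream and 41.4 kb upstream.

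At GBX1 the 3 pNE-only regions lay 36.1 kb downstream, in AGAP3, and 11.0 and 20.6 kb upstream, the former in ASB10. The 3 aNE-only regions lay 66.0 and 62.9 kb downstream, in AGAP3, and 8.37 kb upstream at the end of ASB10. The region 8.37 kb upstream (chr7:151175743-151176388) had 559, 646 and 435 bases in hPSC, DE and aNE and was closed in every other list.

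At OTX1, 2 regions had no peak in hPSC or DE, opened in both day 2 lists and were open in most day 4 lists. The region 37.1 kb upstream (chr2:63013379-63014171), inside EHBP1, had 0 bases in hPSC and DE, 699 in aNE and 567 in pNE. Its day 4 values were 793, 774 and 664 in aNE_T, aNE_M and aNE_H, against 151, 0 and 313 in pNE_T, pNE_M and pNE_H. It thus opened in both day 2 populations and was wider in each aNE-derived list than in any pNE-derived list. The region 16.0 kb downstream (chr2:63066456-63067122), in no other protein-coding gene, had 0 in hPSC and DE, 385 in aNE and 348 in pNE, then 455, 667 and 0 in aNE_T, aNE_M and aNE_H and 228, 345 and 253 in pNE_T, pNE_M and pNE_H. It was open in every list from day 2 on except aNE_H. The pNE-only regions of day 2 lay 19.6 and 10.0 kb upstream and 43.3 kb downstream, and the aNE-only regions 1.28 kb upstream and 6.10 kb downstream. The regions 37.1 kb upstream and 16.0 kb downstream were named for their pattern after the values were seen. The share of all merged regions with such a pattern was not counted.

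At DMBX1 the aNE-only regions of day 2 lay 30.8 and 24.6 kb upstream and 13.2 and 36.5 kb downstream, and the pNE-only regions 38.9 and 61.1 kb downstream. The region 24.6 kb upstream (chr1:46465039-46465376) had 276 bases in DE, 303 in aNE and 127 in aNE_T, and 0 elsewhere. Its neighbour 28.4 kb upstream (chr1:46461078-46461701) had 496 in DE, 580 in aNE, 151 in pNE, 411, 214 and 267 in aNE_T, aNE_M and aNE_H, 117 in pNE_T, and 0 in hPSC, pNE_M and pNE_H. Both were therefore widest in aNE and had no peak in pNE_M or pNE_H. The region 28.4 kb upstream was named after its values were seen.

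On day 4 in the aNE line, the GBX regions gained varied with the medium, being fewest in the hindbrain list. From aNE to aNE_T, 8 of 38 GBX regions were gained (21.1%) and 3 lost (7.89%), where all regions gave 25.5% and 11.4%. All 8 gained regions were at GBX2, which lost 1. OTX1 and DMBX1 gained 6 of 44 (13.6%) and lost 5 (11.4%). From aNE to aNE_M, the GBX genes gained 14 of 44 (31.8%) and lost 7 (15.9%), beside 32.8% and 12.4%. OTX1 and DMBX1 gained 10 of 48 (20.8%) and lost 7 (14.6%). From aNE to aNE_H, the GBX genes gained 5 of 35 (14.3%) and lost 8 (22.9%), beside 31.7% and 16.9%. OTX1 and DMBX1 gained 6 of 44 (13.6%) and lost 7 (15.9%). From aNE to aNE_H both pairs of genes thus lost more regions than they gained, while the genome gained more than it lost. From pNE to pNE_H, in the same medium, both pairs gained more than they lost. The aNE list is the shortest and pNE_H the longest, and these pairs of lists were not recounted by region at equal length. Among the widest peaks in lists of one size, GBX1 had 19 peaks in aNE and 17 in each aNE-derived list. GBX2 had 12 in aNE, and 14, 14 and 11 in aNE_T, aNE_M and aNE_H.

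In the pNE line OTX1 and DMBX1 gained a smaller share than the genome in each of the 3 media. The GBX genes did so in pNE_M and pNE_H, and were near the genome-wide share in pNE_T. From pNE to pNE_T, the GBX genes gained 11 of 45 regions (24.4%) and lost 10 (22.2%), beside 26.0% and 21.9% over all regions. Over the regions in any protein-coding window 24.1% were gained. OTX1 and DMBX1 gained 4 of 41 (9.76%) and lost 5 (12.2%). From pNE to pNE_M, the GBX genes gained 4 of 38 (10.5%) and lost 10 (26.3%), beside 24.7% and 21.1%. OTX1 and DMBX1 gained 7 of 44 (15.9%) and lost 10 (22.7%). From pNE to pNE_H, the GBX genes gained 13 of 47 (27.7%) and lost 8 (17.0%), beside 41.1% and 8.32%. OTX1 and DMBX1 gained 8 of 45 (17.8%) and lost 5 (11.1%).

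Between media of 1 origin, the GBX genes had fewer regions in the hindbrain than in the telencephalon list of the aNE line, and more in the pNE line, in lists of unequal length. Of 39 GBX regions, 12 were open in aNE_T only (30.8%) and 4 in aNE_H only (10.3%), beside 21.7% and 23.4% over all regions. Of 46, 7 were open in pNE_T only (15.2%) and 11 in pNE_H only (23.9%), beside 10.4% and 39.2%. At OTX1 and DMBX1, 6 of 43 were open in aNE_T only (14.0%) and 4 in aNE_H only (9.30%), and 4 of 44 in pNE_T only (9.09%) and 8 in pNE_H only (18.2%). The pNE_H list has more peaks than any other, and in lists of one size the GBX counts were lower in it than in pNE_T, with 15 against 19 peaks at GBX1 and 8 against 15 at GBX2. The higher GBX number in pNE_H was thus not kept at equal list length.

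Between origins in the same medium, the pairs of genes lay furthest apart in the hindbrain lists, which are of unequal length. In the telencephalon lists, 9 of 44 GBX regions were open in aNE_T only (20.5%) and 9 in pNE_T only (20.5%), beside 20.8% and 27.2% over all regions. OTX1 and DMBX1 had 8 of 44 (18.2%) and 5 (11.4%). In the midbrain lists, 13 of 41 GBX regions were open in aNE_M only (31.7%) and 4 in pNE_M only (9.76%), beside 24.1% and 22.8%. OTX1 and DMBX1 had 12 of 46 (26.1%) and 5 (10.9%). In the hindbrain lists, 4 of 43 GBX regions were open in aNE_H only (9.30%) and 16 in pNE_H only (37.2%), beside 9.47% and 42.3%. OTX1 and DMBX1 had 5 of 45 (11.1%) and 8 (17.8%). In pNE_H the GBX genes were therefore near the genome-wide share and the OTX1 and DMBX1 windows below it. The pNE_H list held 313095 peaks and aNE_H 203961, and this pair of lists was not recounted by region at equal length. Among the widest peaks in lists of one size, GBX1 and GBX2 had 15 and 8 peaks in pNE_H against 17 and 11 in aNE_H. OTX1 and DMBX1 had 10 and 16 against 9 and 25.

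**Figure D4:**
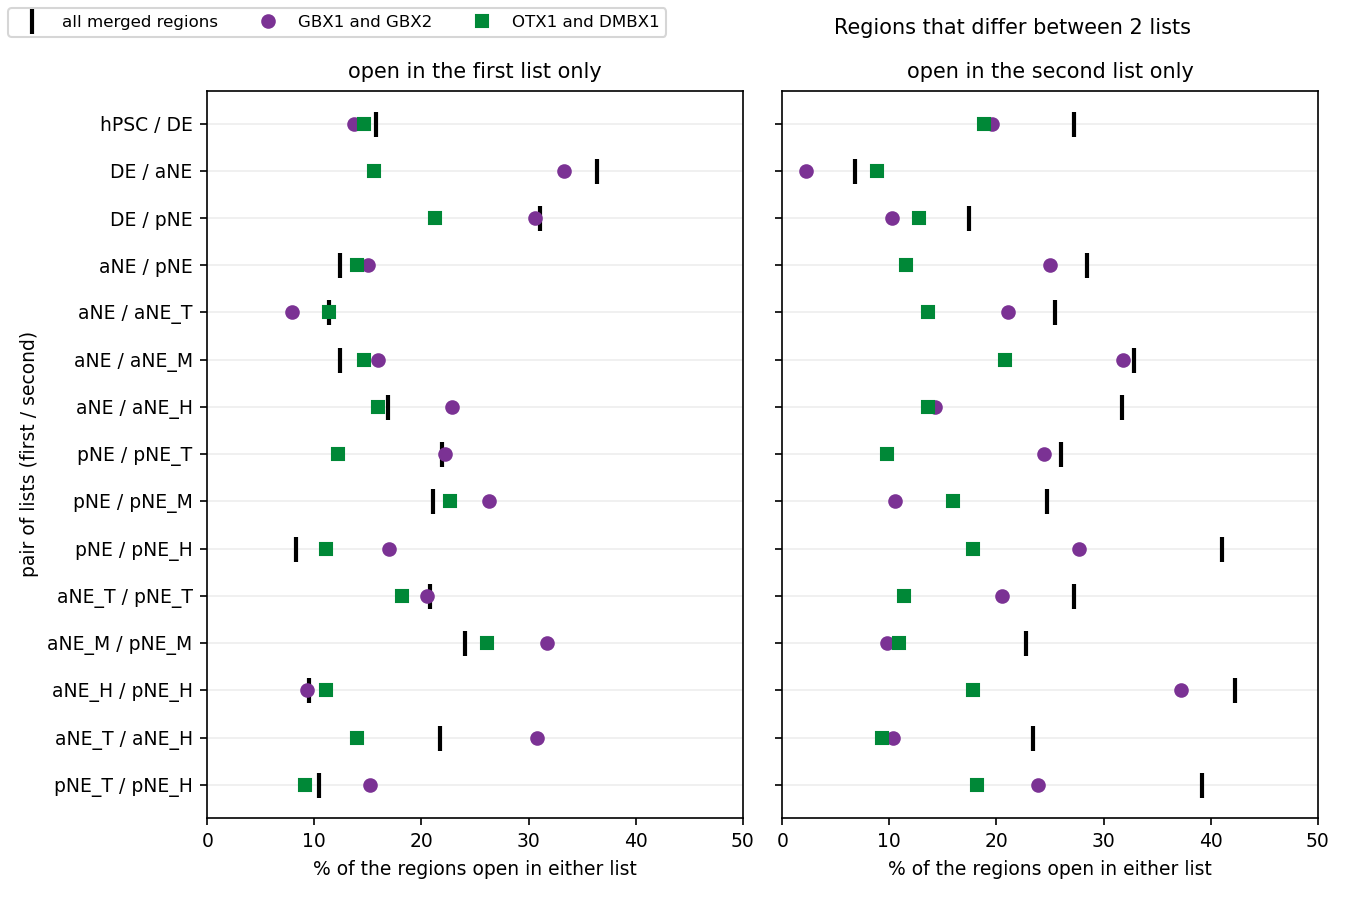
Regions open in only 1 list of each pair, as a percent of the regions open in either (horizontal axes), for the GBX genes (circles), OTX1 and DMBX1 (squares) and all merged regions (bars). For aNE_H against pNE_H the second-list-only share is 37.2% at the GBX genes, 17.8% at OTX1 and DMBX1 and 42.3% over all regions. The pNE_H list is the longest of the series.

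Few regions followed origin across all 3 media on day 4. Of 111 regions open in any day 4 list, 3 were open in all pNE-derived and no aNE-derived lists, where 2.77% of all such regions were, and 2 the reverse, where 0.752% were. The GBX1 region 36.1 kb downstream (chr7:151130936-151132193), in AGAP3, had 124 bases in DE, 162 in pNE, 726, 1223 and 656 in pNE_T, pNE_M and pNE_H, and 0 in hPSC, aNE and all aNE-derived lists. It was the only region of the 5 that split both day 2 and day 4 by origin in the same direction. The DMBX1 region 4.12 kb upstream (chr1:46485339-46486084) had 142 bases in hPSC and 136 in DE, closed in aNE and pNE, and had 476, 351 and 746 in pNE_T, pNE_M and pNE_H. The DMBX1 region 49.2 kb downstream (chr1:46538776-46539200) had 425, 233 and 145 in those lists and 0 in all others. In the other direction, the OTX1 region 42.9 kb upstream (chr2:63007604-63008269), in EHBP1, had 356, 651 and 131 bases in aNE_T, aNE_M and aNE_H. It was also open in DE, aNE and pNE, with 165, 259 and 278 bases, so it closed on the pNE side after day 2. The GBX2 region 11.5 kb upstream (chr2:236179848-236180018) had 133, 140 and 126 bases in aNE_T, aNE_M and aNE_H, yet 139 in pNE and 0 in aNE, near the narrowest peak a list holds.

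Regions open in all 6 day 4 lists could still differ in how many bases lay in peaks. Of 42 such regions at the 4 genes, 6 had more in every aNE-derived than in any pNE-derived list (14.3%), beside 6.42% of all such regions, and 6 the reverse (14.3%), beside 7.18%. This comparison was added after the values were seen. The GBX2 region 8.86 kb downstream (chr2:236158874-236160172) had 1294, 1291, 1097 and 1086 bases in hPSC, DE, aNE and pNE, then 993, 1197 and 924 in aNE_T, aNE_M and aNE_H and 549, 600 and 350 in pNE_T, pNE_M and pNE_H. Within the GBX2 gene the order was opposite, since the region 3.85 kb downstream of the start (chr2:236164209-236164874) had 463, 453 and 410 bases in aNE_T, aNE_M and aNE_H and 609, 611 and 607 in pNE_T, pNE_M and pNE_H. The GBX1 region 14.7 kb into the gene (chr7:151152591-151153418) likewise had 357, 532 and 170 in the aNE-derived and 750, 762 and 788 in the pNE-derived lists. The DMBX1 region 12.7 kb upstream (chr1:46476502-46477791) had 282, 264 and 700 in the aNE-derived and 1035, 914 and 1290 in the pNE-derived lists. The region over the DMBX1 start (chr1:46487836-46490294) went the other way, with 2010, 1403 and 1175 against 868, 832 and 864. Single genes therefore held regions wider in either origin.

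Other regulators of the axis give the setting on day 2. Over all protein-coding windows 58.3% had more pNE-only than aNE-only regions and 21.1% had fewer, and the lists below are read against that. Of 10 hindbrain genes, 8 had more pNE-only than aNE-only regions and 0 had fewer. FGF3, a ligand gene of the hindbrain, had 5 pNE-only and 0 aNE-only regions, and IRX3 had 4 and 1, both named after their values were seen. Some windows of this list overlap, as those of HOXB1 and HOXB2 do. Of 12 boundary genes, 9 had more and 1 had fewer, with PAX2, an early marker of the border, at 12 and 3, and SP8 at 0 and 3. Of 11 forebrain and midbrain genes, 7 had more and 2 had fewer, with OTX2, the main anterior determinant, at 3 and 3, and HESX1 at 1 and 3. The 4 genes here, with GBX2 and OTX1 tilted to pNE, DMBX1 to aNE and GBX1 even, had a median difference of 0.5 regions. The medians were 1 for the forebrain and midbrain list and for all protein-coding windows, 2 for the boundary list and 3 for the hindbrain list.

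The profile of peaks over the 10 lists, as peaks in the window per 100000 peaks of the list, was also set beside that of every other protein-coding gene. The points share list length, and with 19407 to 19419 genes over 10 lists high values arise easily, so the correlations are descriptions. Closest to GBX1 were FLOT1 (Pearson r = 0.983), NGB (0.982) and MYT1 (0.980). Closest to GBX2 were EPHB1 (0.956), CEP41 (0.936) and PRKCE (0.919). Among the 3 closest to OTX1 were DCTN1 (0.924) and OR6A2 (0.895), and closest to DMBX1 were PAX7 (0.980), ANKLE1 (0.978) and USHBP1 (0.975). PAX7 is itself a homeobox gene of the dorsal midbrain. Among the 4 genes, r was 0.429 for GBX1 and GBX2, 0.491 for OTX1 and DMBX1, 0.681 for GBX1 and DMBX1, 0.466 for GBX2 and DMBX1, 0.126 for GBX2 and OTX1 and -0.059 for GBX1 and OTX1. The highest value was across the border, and so were the 2 lowest.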

How the data were processed

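The 4 genes, the gene lists, the markers and the motifs were chosen with earlier results of these data known. The authors deposited 1 peak list per group, with 3 columns (chromosome, start, end) and no score, and how the 3 replicates were combined is not given in the sources used here. The submitters' processing notes name FastQC, Bowtie2, MACS2, bedtools, featureCounts, edgeR, deepTools and hg38, with no versions. Each list was assigned by the group named in the labels. Peaks of chromosomes 1 to 22, X and Y that shared at least 1 bp across lists were joined into regions, each called open in the lists with a peak there. Genes and start sites came from RefSeq tables for GRCh38.p14. Of the 20037 protein-coding symbols 15843 had an annotated start, and neighbouring genes are described by their bodies because the tables give no exons. Gene-to-gene comparisons used peaks per 100 kb. With 1 list per group no test was made, and Wilson 95% intervals cover counting only. The named genes were the 4 members, the regulator lists, the genes within the windows, and the 3 genes closest to each member in profile among those with at least 10 peaks over all lists. The named regions lay at a start site, differed between aNE and pNE, or split the day 4 lists by origin. Others are named as chosen after their values were seen. Alternatives were windows of 10 and 100 kb, midpoint assignment, bases in place of peaks, the wider 50% of peaks, the widest 167792 peaks of each list, peaks of 500 bp, 50% coverage, removal of peaks near other gene ends and removal of the longest list. The code was tested on simulated lists with 60000 known sites, with 0 wrong quantities. Python 3.11.15 with numpy 2.4.6, pandas 2.3.3 and matplotlib 3.10.9 was used. Results for some genes of these lists are not reported here.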

Additional observations from a re-analysis of the deposited data

Results flagged for a closer look

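The change from the telencephalon to the hindbrain medium had opposite signs by origin at GBX2 and at DMBX1. At GBX2 the difference was -6 peaks in the aNE-derived lists (from 22 in aNE_T to 16 in aNE_H) and 1 peak in the pNE-derived lists (from 19 in pNE_T to 20 in pNE_H). At DMBX1 it was -2 peaks in the aNE-derived lists (from 29 to 27) and 2 peaks in the pNE-derived lists (from 24 to 26). Each value rests on 1 list per group, the difference between origins was not tested, and pNE_H is the longest list. Among the widest peaks in lists of one size the opposite signs were not kept. GBX2 then had 14 and 11 peaks in aNE_T and aNE_H and 15 and 8 in pNE_T and pNE_H, and DMBX1 had 26 and 25, and 19 and 16.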

How the results depend on the processing

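No paired analysis was possible because each group has 1 list that pools its replicates, and for the same reason no replicate could be left out. With 10 kb each side the GBX share was 37.0 to 44.7% over the 10 lists and moved to 39.5% in hPSC. With 100 kb it was 50.0 to 57.6%, and under the other 5 settings it ranged from 40.7 to 55.6%. Of 40 peak counts of a gene in a list, 38 moved with 10 kb, 30 with 100 kb, 32 among the wider 50% of peaks, 8 among the widest peaks in lists of one size, 6 without peaks near other gene ends and 0 by midpoint. Recounted under each setting, and not as subsets, the aNE-only GBX regions (6) numbered 3 among the wider 50% of peaks, 2 with 10 kb and 10 with 100 kb. The pNE-only GBX regions (10) numbered 6 among the widest peaks in lists of one size, 6 among the wider 50% and 1 with 10 kb. For OTX1 and DMBX1, the count of 6 aNE-only regions became 2 among the wider 50%. The count of 5 pNE-only regions became 8 with 50% coverage, 3 with 500 bp peaks, 2 among the widest peaks, 1 with 10 kb and 12 with 100 kb. The count of 3 regions in all pNE-derived lists became 1 with 10 kb. The count of 2 regions in all aNE-derived lists became 4 with 50% coverage, 1 with 500 bp peaks, 1 among the widest, 1 among the wider 50%, 0 with 10 kb and 4 with 100 kb. The causes of these moves were not tested, beyond the smaller or larger windows and shorter lists themselves. Over the regions in any protein-coding window, chosen as a background after seeing the data, the 30 genome-wide shares of the list pairs moved by at most 3.24 percentage points. Read depth is unknown, so a region missing from a list may have been too shallow to call.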
